A study of Oryza sativa Indica Group with 8 samples.

Results

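In leaves of the indica rice genotype BRS Ligeirinho, 42 of the 55986 loci counted met a rule that asks for a level in both never-shocked control libraries at least 1.5 times that in every library from salt-shocked plants, whether the shock came early, late or at both times. The rule also sets a lowest control level and an exclusion, given below, so other loci that stood higher in control than in every shocked library are not among the 42. The genotype is labelled sensitive to salt stress, and all plants were grown in washed sand in a greenhouse with water and nutrient solution. Vegetative-shock plants met a saline shock at the V4 stage alone, reproductive-shock plants at the R0-R1 stage alone, and double-shock plants, labelled "Reprodutive and vegetative", at both stages. Control plants received water and nutrient solution throughout. Each of the 4 groups had 2 leaf libraries. No source used here gives how much salt was applied, for how long, or how much later leaves were taken, so effects of shock and of collection time cannot be told apart. Whether paired libraries are separate plants is also unstated, and p-values then measure only library-to-library spread, perhaps technical.

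The members were chosen from the measured values themselves. Levels are given in CPM, the usual scaling of a count to its library's total counted reads. A locus was kept where the lower of the 2 control libraries was at least 1.5 times the highest of the 6 shocked libraries and where mean control CPM was at least 5. A locus was then removed where the 4 control and double-shock libraries, or the 4 control and vegetative-shock libraries, all exceeded the other 4 by 1.3 times. Every difference from control given below is therefore a description of what the rule selected. Fold changes and calls from a model fitted to all loci are printed for the members, but they rest on the same values as the rule and are no independent test of it.

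Salt in the root zone limits water uptake and, as sodium enters the leaf, adds ion toxicity. Rice is among the more salt-sensitive cereals, most of all as a seedling and around flowering. Leaves of salt-stressed plants are known to reduce growth, stomatal opening and photosynthesis, and to shift transcription of many genes in both directions. Where plants that recovered from a first stress keep altered transcript levels, or answer a second stress in another way, the term stress memory is used.

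The files give each locus an identifier and no name. A RefSeq gene table of the assembly ASM3414082v1 held 0 of the 42 identifiers, so no gene name, function or sequence is given for any of them, and the leaf label was not checked against marker genes. An identifier such as LOC_Os08g28710 carries its chromosome, here 8, before the g and the locus's place along it after the g. Depth was even, at 10464740 to 11727657 counted reads per library. Where no read was seen, counting error alone allows a level of up to 3 reads, or 0.256 to 0.287 CPM. Reads aligned to more than 1 place made up 13.5% of control replicate 1, 13.6% of double-shock replicate 1 and 13.8% of reproductive-shock replicate 2, against 9.32% to 9.99% of the other libraries. Gene lengths were not given, so levels are compared within a locus and not between loci.

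Of 12539 loci with a mean control CPM of at least 5, 48 passed the ratio, or 0.383%. The exclusion then removed 6 of them, of which 4 followed the double-shock pattern and 2 the vegetative-shock pattern. An example of the first kind, LOC_Os02g52010, stood at 1.91 and 4.95 CPM in double-shock libraries, at 0.948 and 0.968 CPM in vegetative-shock libraries and at 0.607 and 0.359 CPM in reproductive-shock libraries, against 10.9 and 11.1 CPM in control. An example of the second kind, LOC_Os02g52730, stood at 48.4 and 51.2 CPM in vegetative-shock, 11.8 and 14.0 CPM in reproductive-shock and 35.4 and 32.0 CPM in double-shock libraries, against 80.9 and 100.7 CPM in control. Both were lower in every shocked library than in control, and the exclusion chose them for their differences between shocked groups.

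The threshold lay on a continuous slope. The 3 members nearest to it were LOC_Os01g61080 with a ratio of 1.502, LOC_Os06g12370 with 1.518 and LOC_Os04g37430 with 1.526. The 3 loci just outside by ratio were LOC_Os03g49430, LOC_Os02g47470 and LOC_Os01g12760, with ratios of 1.4996, 1.493 and 1.492. LOC_Os02g47470 would also have met the exclusion. Its double-shock libraries stood at 19.5 and 28.1 CPM, against at most 6.86 CPM in the other shocked libraries. LOC_Os06g12370 shows how shallow a member can be, with 55.7 and 45.7 CPM in vegetative-shock, 59.5 and 35.0 CPM in reproductive-shock and 55.0 and 50.7 CPM in double-shock libraries, against 90.3 and 94.2 CPM in control. A ratio of at least 2 was reached by 21 members, of at least 3 by 4 members and of at least 5 by 2.

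**Figure D1:**
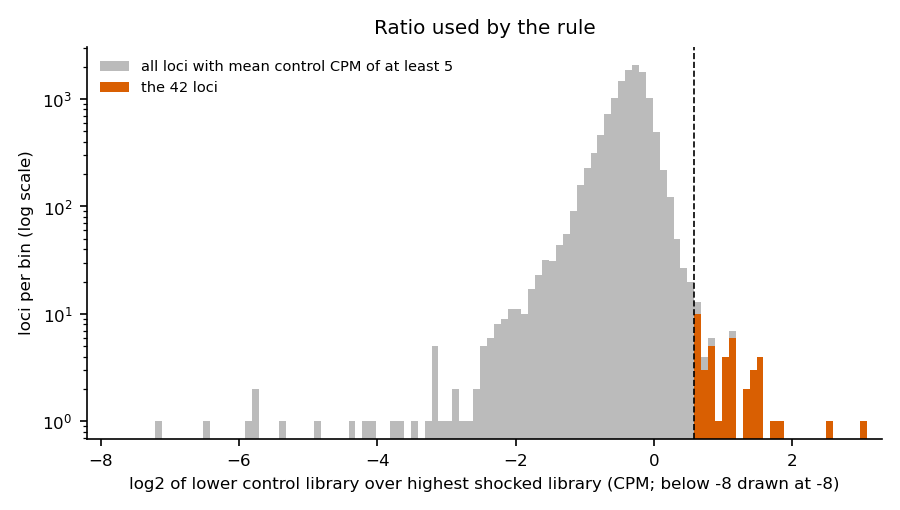
Histogram of the log2 ratio of the lower control library to the highest of the 6 shocked libraries (x axis) over 12539 loci with a mean control CPM of at least 5, with the number of loci per bin on a log scale (y axis). The dashed line marks the ratio of 1.5. The 42 loci (orange) form the right-hand tail from 1.502 to 8.28, and the 6 removed by the exclusion show as grey above them.

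Mean control levels of the members ran from 5.57 to 678 CPM, with a median of 16.5 CPM. Of the 42, 11 averaged under 10 CPM in control, 19 lay between 10 and 30 CPM and 12 at 30 CPM or more. The mean of the 6 shocked libraries was 0.272% to 54.5% of the control mean, with a median of 23.7%. It was under 50% for 41 members, under 25% for 22 and under 10% for 4. LOC_Os08g07080, at 0.272%, and LOC_Os01g50420 are among those 4, and their control means rest mostly on a single library, as given below. For the 11 members at least 2-fold higher in control replicate 2, the median was 13.1% of the control mean but 34.7% of control replicate 1. For the other 31 members these medians were 29.5% and 30.2%. By history, the median member stood at 24.4% of control in vegetative-shock plants, at 18.9% in reproductive-shock plants and at 24.3% in double-shock plants. A lower read share in leaf tissue can come from fewer cells that make a transcript or from less of it per cell, which bulk libraries cannot tell apart.

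**Figure D2:**
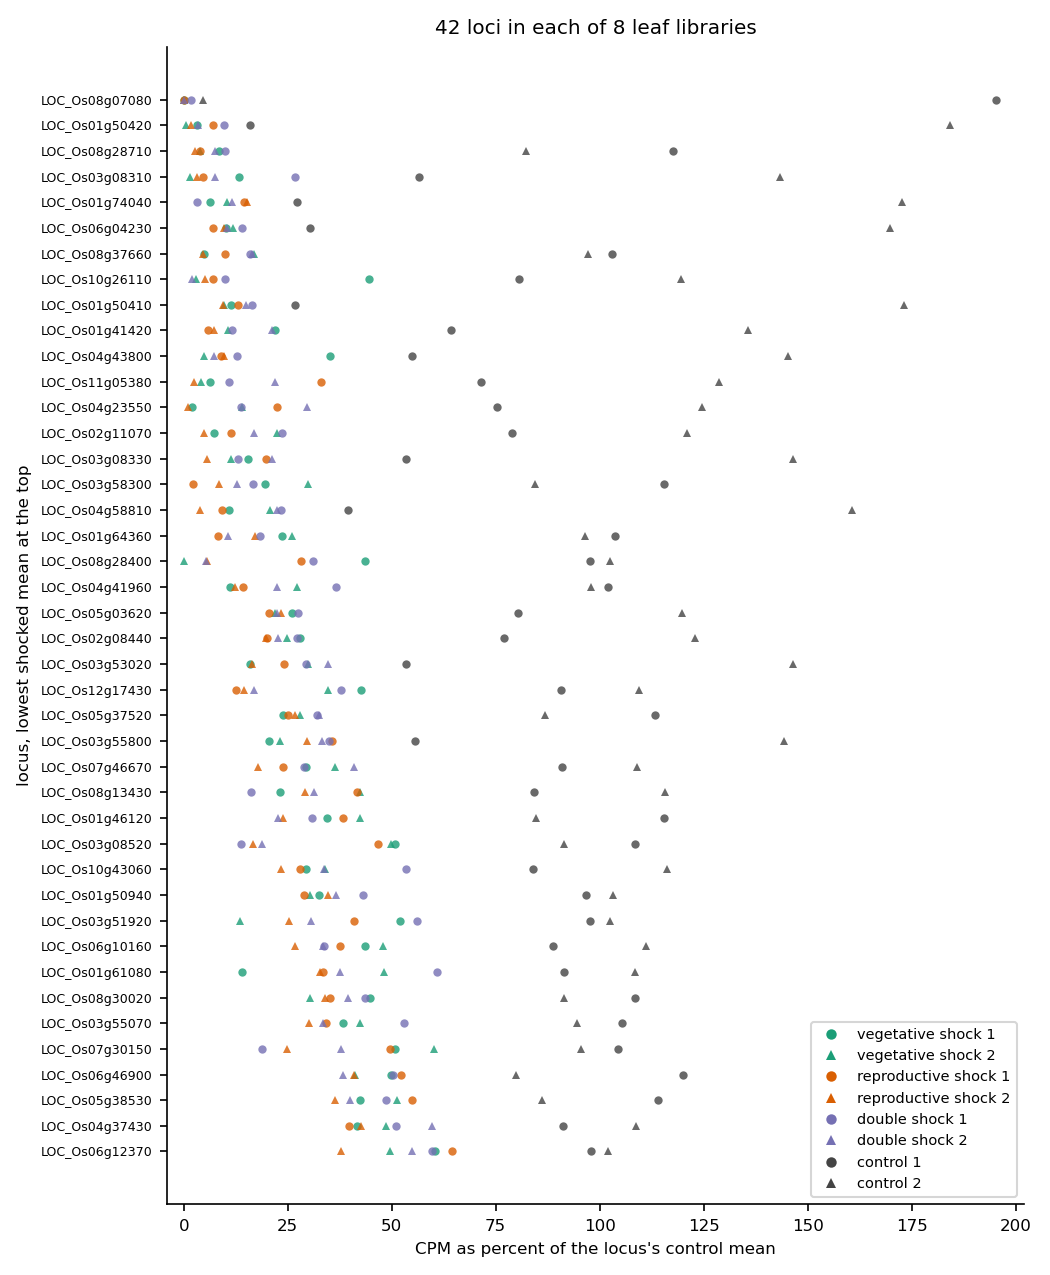
CPM of each of the 42 loci in each library as a percentage of that locus's control mean (x axis), with loci ordered from the lowest shocked mean at the top (y axis). Circles are replicate 1 and triangles replicate 2. Shocked libraries gather at the left, with medians of 16.5% to 27.0%, and the control pairs lie close together for most lower loci and far apart for many upper ones.

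The locus with the widest gap between control and shocked libraries was LOC_Os08g28710 on chromosome 8. It stood at 0.569 and 0.264 CPM in vegetative-shock, 0.260 and 0.179 CPM in reproductive-shock and 0.669 and 0.512 CPM in double-shock libraries, against 7.93 and 5.54 CPM in control. In reads this was 27 over the 6 shocked libraries against 148 over the 2 control libraries. The pooled shocked level was 5.99% of control, between 3.82% and 9.07% by a 95% exact binomial interval for counting error alone. Its lower control library was 8.28 times the highest shocked library, and 3 of its shocked libraries held 3 reads or fewer.

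LOC_Os08g37660, on the same chromosome, followed with a ratio of 5.73. It stood at 0.379 and 1.32 CPM in vegetative-shock, 0.780 and 0.359 CPM in reproductive-shock and 1.24 and 1.28 CPM in double-shock libraries, against 8.02 and 7.57 CPM in control. Its control libraries were close together, and its shocked libraries spanned 3.68-fold. The next largest ratio was that of LOC_Os01g64360 on chromosome 1, at 3.69. That locus had 2.46 and 2.73 CPM in vegetative-shock, 0.866 and 1.79 CPM in reproductive-shock and 1.91 and 1.11 CPM in double-shock libraries, against 10.8 and 10.1 CPM in control. Its highest shocked library was a vegetative-shock one and its lowest a reproductive-shock one.

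LOC_Os02g11070 on chromosome 2 had 1.61 and 5.01 CPM in vegetative-shock, 2.51 and 1.08 CPM in reproductive-shock and 5.26 and 3.75 CPM in double-shock libraries, against 17.7 and 27.0 CPM in control. LOC_Os01g41420 on chromosome 1 had 10.2 and 4.93 CPM in vegetative-shock, 2.69 and 3.41 CPM in reproductive-shock and 5.35 and 9.89 CPM in double-shock libraries, against 29.9 and 63.2 CPM in control. In both loci a reproductive-shock library was the lowest of the 8. LOC_Os05g03620 on chromosome 5 had a ratio of 2.91 with nearly flat shocked values. Its shocked libraries ran from 1.56 to 2.102 CPM, against 6.12 and 9.13 CPM in control.

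LOC_Os08g30020 on chromosome 8 took the most reads of all members. It stood at 304 and 207 CPM in vegetative-shock, 238 and 230 CPM in reproductive-shock and 295 and 267 CPM in double-shock libraries, against 736 and 620 CPM in control. The mean of its shocked libraries was 37.9% of control, and the 6 shocked libraries spanned 1.47-fold. This locus is the largest single part of the summed level of the 42 loci, so medians over loci are used instead of sums.

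LOC_Os02g08440 on chromosome 2 had 31.2 and 27.6 CPM in vegetative-shock, 22.2 and 22.1 CPM in reproductive-shock and 30.4 and 25.3 CPM in double-shock libraries, against 85.7 and 136.6 CPM in control. LOC_Os07g46670 on chromosome 7 had 21.7 and 26.7 CPM in vegetative-shock, 17.6 and 13.1 CPM in reproductive-shock and 21.2 and 30.1 CPM in double-shock libraries, against 67.0 and 80.3 CPM in control. In both, the reproductive-shock libraries were the lowest 2 of the 8. LOC_Os03g51920 on chromosome 3 was less even, with 50.9 and 13.2 CPM in vegetative-shock, 40.2 and 24.7 CPM in reproductive-shock and 54.9 and 30.01 CPM in double-shock libraries, against 95.6 and 100.3 CPM in control. In each shocked group its replicate 1 was the higher library.

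LOC_Os05g37520 on chromosome 5 is the member with the flattest shocked values among those called lower in all 3 groups below. It had 2.56 and 2.99 CPM in vegetative-shock, 2.69 and 2.87 CPM in reproductive-shock and 3.44 and 3.50 CPM in double-shock libraries, against 12.2 and 9.32 CPM in control. Its shocked libraries spanned 1.37-fold, so the 3 histories were nearly the same for this locus while its lower control library was 2.67 times the highest of them. Over all members, the 6 shocked libraries lay within 1.5-fold of each other in 7 loci and within 2-fold in 14. In 8 loci they were over 10-fold apart or included a library without reads.

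**Figure D3:**
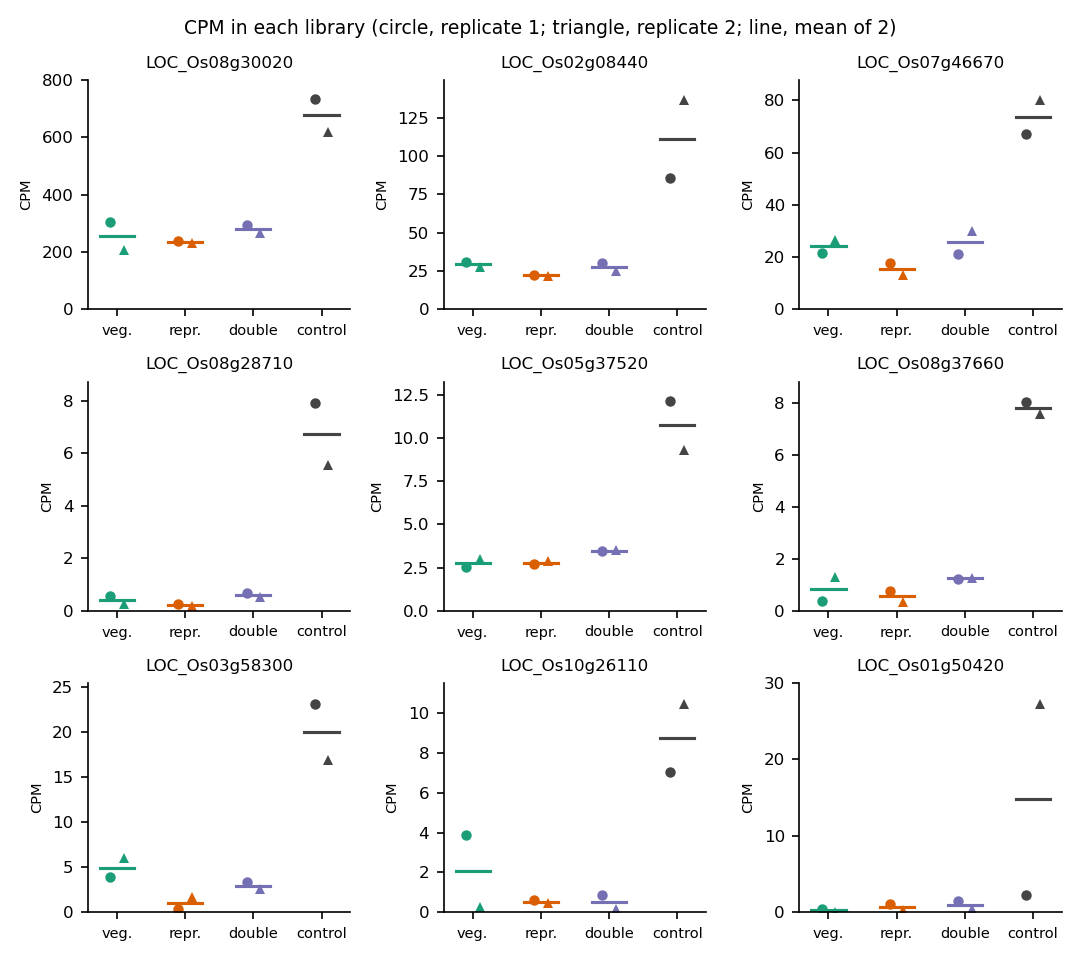
CPM (y axes, from 0) of 9 of the 42 loci in vegetative-shock, reproductive-shock, double-shock and control libraries (x axes), with circles for replicate 1, triangles for replicate 2 and lines for the mean of 2. LOC_Os05g37520 is flat over the shocked groups at 2.56 to 3.50 CPM, LOC_Os10g26110 has a single raised vegetative-shock library at 3.89 CPM, and LOC_Os01g50420 has control libraries at 2.34 and 27.2 CPM.

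A model was fitted to all loci to give each member a fold change with its error. It kept 18251 loci with enough reads, and 41 of the 42 members among them. The member left out was LOC_Os08g07080, whose reads were nearly all in a single control library. Log2 fold changes against control are from edgeR with TMM scaling, and a locus was called at a Benjamini-Hochberg adjusted p below 0.05 over all loci tested. These contrasts share the control libraries, and the rule used them, so nothing is read from the counts that follow.

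In reproductive-shock plants 19 of the 41 members were called lower, where 0.389% of all loci tested were. Those 19 made up 26.8% of the 71 loci called lower. In double-shock plants 7 members were called lower, where 0.0931% of all loci were, and they made up 41.2% of the 17 loci called lower. In vegetative-shock plants 2 members were called lower, where 0.0274% of all loci were, and they made up 40% of the 5 loci called lower. The 7 members called in double-shock plants were all among the 19, and so were the 2 called in vegetative-shock plants. DESeq2 called 29 members lower in vegetative-shock, 32 in reproductive-shock and 24 in double-shock plants, where 0.526%, 1.22% and 0.896% of all loci it tested were. Median log2 fold changes of the 41 were -2.02 in vegetative-shock, -2.25 in reproductive-shock and -1.98 in double-shock plants, beside 0.0039, -0.0033 and 0.0074 over all loci tested.

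The members called lower in all 3 groups were LOC_Os08g28710 and LOC_Os05g37520. LOC_Os08g28710 had log2 fold changes of -3.98 (SE 0.44) in vegetative-shock, -4.76 (SE 0.48) in reproductive-shock and -3.45 (SE 0.42) in double-shock plants. LOC_Os05g37520 had -1.95 (SE 0.23), -1.84 (SE 0.22) and -1.58 (SE 0.22) in the same order of groups. A further 5 members were called in both the reproductive-shock and the double-shock plants, among them LOC_Os01g64360, LOC_Os02g08440 and LOC_Os07g46670. The other 2 were LOC_Os01g46120 and LOC_Os06g10160, which are named because they complete that count. LOC_Os06g10160 had 17.4 and 19.2 CPM in vegetative-shock, 15.1 and 10.7 CPM in reproductive-shock and 13.5 and 13.4 CPM in double-shock libraries, against 35.6 and 44.5 CPM in control.

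These counts depended on single libraries. The 19 calls in reproductive-shock plants became 0 without reproductive-shock replicate 1, 1 without reproductive-shock replicate 2 and 3 without control replicate 2. The 7 calls in double-shock plants became 0 when double-shock replicate 1 or control replicate 2 was left out, 1 when double-shock replicate 2 was, and 11 when vegetative-shock replicate 2 was. The 2 calls in vegetative-shock plants became 0 without either vegetative-shock library, either reproductive-shock library or control replicate 2, and 15 without control replicate 1. All log2 fold changes of the 41 members against control stayed negative in this fit and in all 13 alternative fits, but the rule had fixed that direction, so it is no sign of stability.

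**Figure D4:**
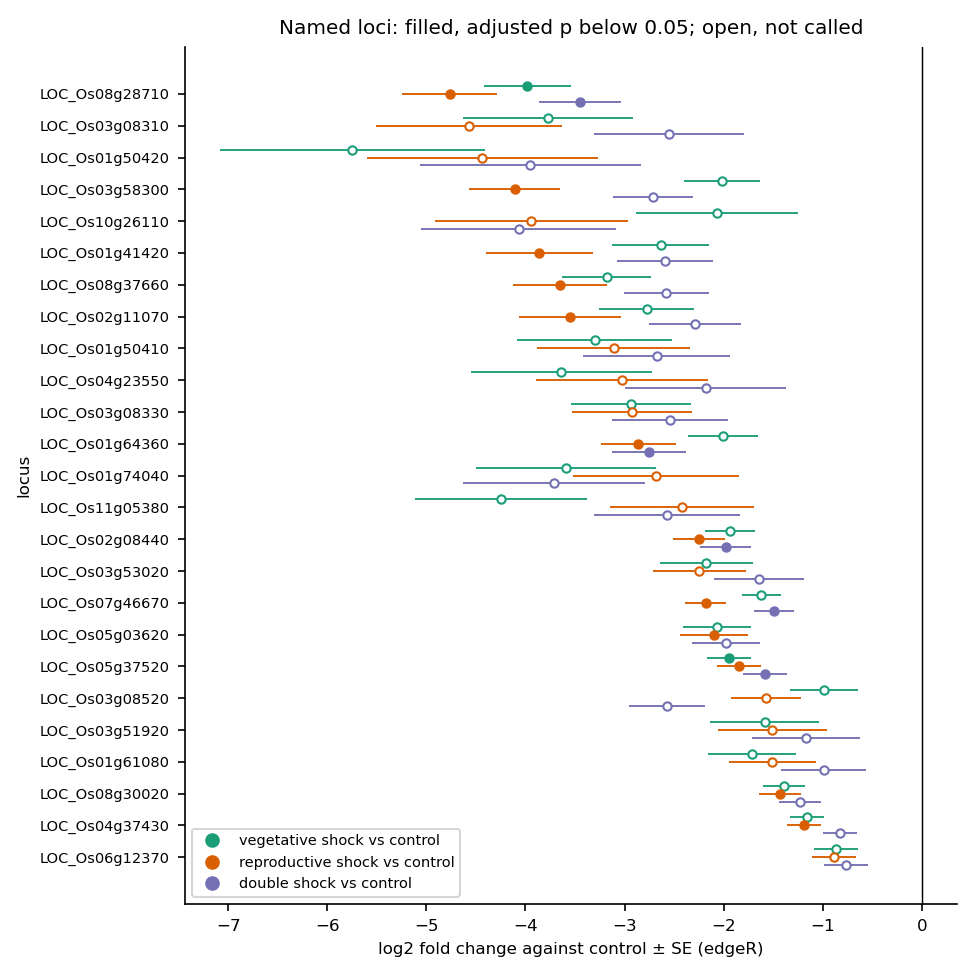
Log2 fold change against control with its standard error (x axis) of the loci named by the rule and tested (y axis), in vegetative-shock, reproductive-shock and double-shock plants. Filled points have an edgeR adjusted p below 0.05 and open points do not. LOC_Os08g28710 and LOC_Os05g37520 are filled in all 3 groups, and the widest bars belong to LOC_Os01g50420, with SEs of 1.11 to 1.34.

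The control libraries themselves disagreed at many members. Control replicate 2 was the higher at 28 of the 42 and control replicate 1 at 14, whereas over loci with a mean control CPM of at least 5 replicate 2 was the higher at 32.5%. At 11 members replicate 2 was at least 2-fold above replicate 1, where 0.534% of those loci were. At 25 members the control libraries lay within 1.5-fold. The rule asks for a high lower control library and sets no upper limit on the other. It also asks for a mean control CPM of at least 5. A locus with a lower control library under 5 CPM could thus pass only with a higher second one. That limit does not bear on members whose lower control library was above 5 CPM, such as LOC_Os03g53020 at 37.5 CPM. The rule treats the 2 control libraries alike, so it sets no direction between them. Why replicate 2 was the higher at more members was not tested.

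The 2 members with the most unequal control libraries were LOC_Os08g07080 and LOC_Os01g50420. LOC_Os08g07080 had 127 reads in control replicate 1 and 3 in control replicate 2. Its shocked libraries held 1 read in all, in double-shock replicate 1. Pooled, the shocked level was 0.253% of control, between 0.00635% and 1.43% by the same kind of interval, but nearly all of the control reads came from a single library. LOC_Os01g50420 on chromosome 1 stood at 0.474 and 0.0880 CPM in vegetative-shock, 1.04 and 0.269 CPM in reproductive-shock and 1.43 and 0.512 CPM in double-shock libraries, against 2.34 and 27.2 CPM in control. Its second control library was 11.6 times its first.

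Other members with this imbalance were LOC_Os01g50410, with control values of 5.13 and 33.3 CPM, and LOC_Os01g74040, with 1.62 and 10.2 CPM. LOC_Os03g53020 had control values of 37.5 and 102.9 CPM, beside 11.2 and 20.9 CPM in vegetative-shock, 17.0 and 11.5 CPM in reproductive-shock and 20.5 and 24.3 CPM in double-shock libraries. For the 11 members at least 2-fold higher in control replicate 2, the median log2 fold change in reproductive-shock plants was -3.34. It became -1.67 when control replicate 2 was left out and -3.93 when control replicate 1 was. For all 41 members the same median was -2.25, and it became -1.69 and -2.61 when those libraries were left out in that order. The 11 were picked for their high control replicate 2, so the direction of both changes in their median was fixed by that choice.

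**Figure D5:**
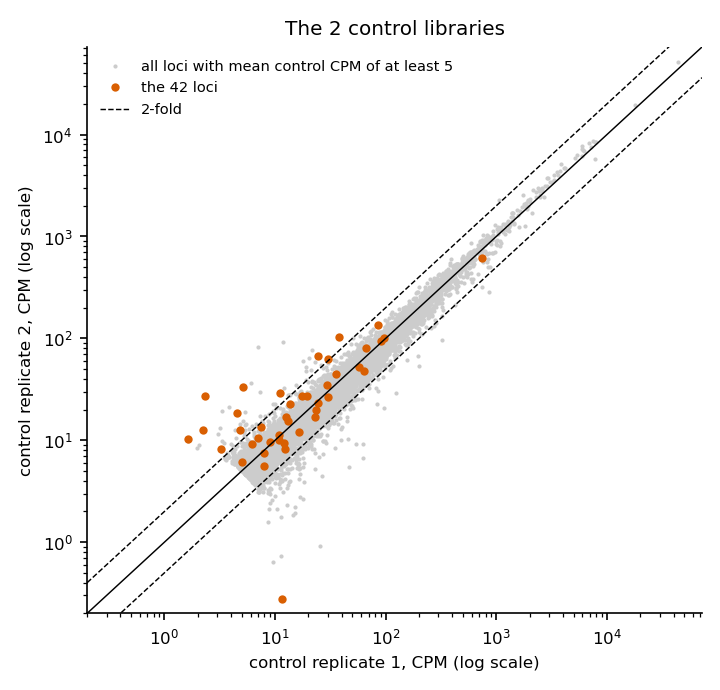
CPM in control replicate 1 (x axis) and control replicate 2 (y axis), both on log scales, for loci with a mean control CPM of at least 5 (grey) and the 42 loci (orange). The solid line marks equal values and the dashed lines a 2-fold difference. Of the 42, 11 lie at or above the upper dashed line and 1 lies below the lower one.

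Among the shocked groups, the lowest group mean was in reproductive-shock plants for 24 members, in vegetative-shock plants for 10 and in double-shock plants for 8. The 10 include LOC_Os08g07080, where vegetative-shock and reproductive-shock plants tied with no reads. The highest group mean was in double-shock plants for 26, in vegetative-shock plants for 12 and in reproductive-shock plants for 4. The share of all loci with each group lowest or highest was not counted, so no trait of the members is read from these counts. Double-shock plants stood above reproductive-shock plants at 33 of 42 members, where they did at 60.7% of loci with a mean control CPM of at least 5. Reproductive-shock plants stood below vegetative-shock plants at 29 of 42, where they did at 68.9% of those loci. Vegetative-shock plants stood below double-shock plants at 27 of 42, where they did at 41.8% of those loci. The rule caps all 6 shocked libraries and removed loci that stood high in double-shock or vegetative-shock plants, so it shaped these counts in part and they are a description.

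Both double-shock libraries lay above both reproductive-shock libraries at 20 of 41 members, where 25.4% of all loci tested did, and below them at 1, where 15.1% did. Both double-shock libraries lay above both vegetative-shock libraries at 8 members (15.1% of all loci) and below them at 6 (21.2%). Both reproductive-shock libraries lay below both vegetative-shock libraries at 14 members (26.9%) and above them at 2 (11.5%). edgeR called 0 members between any pair of shocked groups, and the smallest adjusted p of a member was 0.32. Between double-shock and reproductive-shock plants it called 0% of all loci in either direction. Between double-shock and vegetative-shock plants it called 0.0438% of all loci lower and 0.0274% higher, and between reproductive-shock and vegetative-shock plants 0.0274% in each direction.

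With double-shock set against reproductive-shock plants, 5 members were higher and 1 lower at an unadjusted p below 0.05, where 3.38% and 4.67% of all loci were. By the same measure, in double-shock against vegetative-shock plants 0 members were higher and 2 lower, where 4.36% and 4.3% of all loci were. In reproductive-shock against vegetative-shock plants 0 were higher and 3 lower, where 4.48% and 3.15% of all loci were. DESeq2 called 0 members between double-shock and reproductive-shock plants, where it called 0.104% of loci higher and 0.305% lower. It called 1 member lower in double-shock than in vegetative-shock plants (0.301% of loci, with 0.258% higher) and 1 lower in reproductive-shock than in vegetative-shock plants (0.245% of loci, with 0.343% higher). With 2 libraries a group, this does not show that the histories left equal levels.

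The widest differences between histories within the set ran in several directions. LOC_Os03g58300 on chromosome 3 stood at 3.89 and 5.98 CPM in vegetative-shock, 0.433 and 1.70 CPM in reproductive-shock and 3.34 and 2.56 CPM in double-shock libraries, against 23.1 and 16.9 CPM in control. Its reproductive-shock libraries lay below the other 6. LOC_Os03g08520, on the same chromosome, stood at 10.997 and 10.8 CPM in vegetative-shock, 10.1 and 3.59 CPM in reproductive-shock and 2.96 and 4.09 CPM in double-shock libraries, against 23.5 and 19.8 CPM in control. Its double-shock libraries lay below both vegetative-shock libraries and overlapped the reproductive-shock range. In log2 terms the double-shock group was 1.58 lower than the vegetative-shock group (log2 fold change -1.58, edgeR adjusted p = 0.32).

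In other members the libraries of a shocked group lay far apart. LOC_Os10g26110 on chromosome 10 stood at 3.89 and 0.264 CPM in vegetative-shock, 0.607 and 0.448 CPM in reproductive-shock and 0.860 and 0.171 CPM in double-shock libraries, against 7.03 and 10.4 CPM in control. LOC_Os11g05380 on chromosome 11 stood at 0.664 and 0.440 CPM in vegetative-shock, 3.47 and 0.269 CPM in reproductive-shock and 1.15 and 2.30 CPM in double-shock libraries, against 7.48 and 13.5 CPM in control. The highest shocked library was vegetative-shock replicate 1 at LOC_Os10g26110 and reproductive-shock replicate 1 at LOC_Os11g05380, and at LOC_Os11g05380 both double-shock libraries also lay above both vegetative-shock libraries. LOC_Os04g23550 on chromosome 4 stood at 0.379 and 2.55 CPM in vegetative-shock, 4.07 and 0.179 CPM in reproductive-shock and 2.48 and 5.37 CPM in double-shock libraries, against 13.7 and 22.6 CPM in control. Its shocked libraries spanned 29.96-fold, with a high and a low library in both the vegetative-shock and the reproductive-shock group.

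Replicate numbers also separated shocked libraries at some members. At 11 of the 42, replicate 1 was the higher library in all 3 shocked groups, where 8.26% of loci with a mean control CPM of at least 5 were. LOC_Os08g28400 on chromosome 8, named after its values were seen, is an example. It had 4.83 and 0 CPM in vegetative-shock, 3.12 and 0.628 CPM in reproductive-shock and 3.44 and 0.597 CPM in double-shock libraries, against 10.8 and 11.3 CPM in control. Replicate 1 of the double-shock group was the highest shocked library at 15 of the 42 members. Replicate 2 of the reproductive-shock group was the lowest at 15. How often either held over all loci was not counted, so nothing is read from these 2 counts. Over loci with a mean control CPM of at least 5, replicate 1 was the higher at 67.8% in the reproductive-shock group and at 39.2% in the double-shock group. For the members this was 30 and 29 of 42. Double-shock replicate 1 and reproductive-shock replicate 2 belong to the 3 libraries with a high share of multiply aligned reads, as does control replicate 1. The part of that share in these results was not tested locus by locus. With a term for those 3 libraries in the model, 2 members were called lower in vegetative-shock, 16 in reproductive-shock and 8 in double-shock plants.

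The 42 loci lay on 11 of the 12 chromosomes, with 8 each on chromosomes 1 and 3, 6 on chromosome 8 and none on chromosome 9. Chromosomes 1 and 3 carry 11.7% and 9.95% of all loci counted, and 19.0% of the members each. Chromosome 8 carries 7.48% of all loci and 14.3% of the members, and chromosome 9 carries 6.09% of all loci. Members could come only from loci with a mean control CPM of at least 5, whose share on each chromosome was not counted. No excess or lack is therefore read from these shares. In 2 cases members were near neighbours, at most 3 places apart in the order of identifiers. LOC_Os01g50410 and LOC_Os01g50420 were adjacent, and both had their high control value in replicate 2, as given above. The shocked libraries of LOC_Os01g50410 ran from 1.79 to 3.15 CPM.

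The second pair, LOC_Os03g08310 and LOC_Os03g08330, lay 2 places apart on chromosome 3. LOC_Os03g08310 stood at 0.758 and 0.0880 CPM in vegetative-shock, 0.260 and 0.179 CPM in reproductive-shock and 1.53 and 0.426 CPM in double-shock libraries, against 3.24 and 8.21 CPM in control. LOC_Os03g08330 stood at 7.11 and 5.19 CPM in vegetative-shock, 9.10 and 2.60 CPM in reproductive-shock and 6.02 and 9.72 CPM in double-shock libraries, against 24.6 and 67.4 CPM in control. Both were over 2.5-fold higher in control replicate 2 than in control replicate 1. The locus between them, LOC_Os03g08320, failed the rule through a single library. It stood at 3.03 and 1.85 CPM in vegetative-shock, 1.99 and 1.70 CPM in reproductive-shock and 20.7 and 1.11 CPM in double-shock libraries, against 11.7 and 19.3 CPM in control. Because strand use and the handling of near-identical copies are not stated, reads of neighbouring or similar loci may not be fully separated.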

How the data were processed

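For each of 8 leaf libraries the authors deposited 1 table of unnormalised read counts by locus. A TruSeq kit was used on total RNA, per the labels' protocols. The submitters' processing notes name STAR 2.7 and HTSeq 0.11.1, with FastQC 0.11.7 and Trimmomatic before them and edgeR 3.8 after, but no setting. No source used here gives the genome build, annotation or strand option. The 5 HTSeq summary lines, 15.0% to 19.2% of listed reads, entered neither library sizes nor tests.

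CPM is the count divided by the library's total over loci. Loci were kept with filterByExpr, and 8 libraries were fitted in 1 edgeR 4.0.16 model (R 4.3.3) on group alone, using TMM factors (0.922 to 1.08), 4 residual degrees of freedom and the two-sided quasi-likelihood F test. SEs are fold changes over the square root of F. The edgeR fit was tried on simulated counts with loci lowered in the reproductive-shock group alone. That trial does not check the member rule or the other contrasts. Replicates differed by more than sampling noise (chi-square per degree of freedom 12.4 to 14.4).

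Alternatives were RLE factors, no filter, DESeq2 1.42.0, a replicate block, leaving out each library, other limits in the member rule and, chosen after seeing the data, a term for the libraries with many multiply aligned reads. The members and lists were chosen with earlier results of these data known. Named members were those with the most control reads, the largest ratios, calls in all 3 groups, near neighbours, those next to the threshold, those with the widest differences between shocked groups (log2 of mean CPM plus 0.5) or between control libraries.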

Additional observations from a re-analysis of the deposited data

How the results depend on the processing

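The size of the set followed its limits. It held 88 loci at a ratio of 1.3, 21 at a ratio of 2, 81 at a control mean of 1 CPM, 31 at 10 CPM and 48 without the exclusion. With TMM-scaled CPM it held 36 loci, 33 of them shared with the 42; the 9 that left had ratios of 1.502 to 1.634. RLE scaling gave 37, with 33 shared. Leaving out 1 library gave 41 to 198 loci. The highest counts were 198 without control replicate 2, 115 without control replicate 1 and 76 without vegetative-shock replicate 1, with 36, 41 and 38 of the 42 kept.

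Members called lower in reproductive-shock, vegetative-shock and double-shock plants numbered 19, 2 and 7. They numbered 32, 29 and 24 by DESeq2, and 42 in each without the low-count filter, where edgeR's prior degrees of freedom became infinite, so that all loci shared 1 trend of the spread. Leaving out 1 library gave 0 to 21, 0 to 15 and 0 to 11. Over all loci the calls in the same order were 112, 6 and 30. They became 431, 128 and 231 by DESeq2, and 1291, 499 and 1119 without the filter. Leaving out 1 library gave 1 to 143, 0 to 52 and 4 to 49.

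For double-shock against reproductive-shock plants 0 loci were called by edgeR, with 1469 at an unadjusted p below 0.05. There were 63 by DESeq2, 501 without the filter and 0 to 17 on leaving out 1 library. For double-shock against vegetative-shock plants 13 became 102 by DESeq2, 706 without the filter, 6 with the multiple-alignment term and 0 to 28 on leaving out 1 library. For reproductive-shock against vegetative-shock plants 10 became 72, 446, 1 and 0 to 13 in the same order, and RLE factors turned the split of 5 higher and 5 lower into 5 and 8. The cause of these changes was not tested.

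The replicate number was not taken as a pairing, since deviations of same-numbered libraries correlated at -0.153 to 0.254. With a replicate block, 11 loci were called in vegetative-shock and 54 in double-shock plants against control, and the number of members called lower was 2 and 8. Over the named members, 763 of the alternative fits against control kept the side of the threshold, 82 lost the call and 130 gained it, with none reversed in sign. Depth limits levels under about 1 CPM. At 9 members a shocked library held 3 reads or fewer. These include LOC_Os04g23550 and LOC_Os08g28400, whose highest shocked libraries reached 5.37 and 4.83 CPM.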
